A study of Mus musculus with 41 samples.

Results

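Gene expression in tibial fracture calluses of young mice, aged 5 months, was compared between day 10 and day 5 after fracture, across 19938 genes. The comparison rested on 10 of the 41 arrays of the series, chosen by age and day in the labels: 5 from young mice at day 10 and 5 from young mice at day 5, each from a different mouse. All mice came from the NIH aged rodent colony. Fractured mice had a pin placed inside the tibia and a closed fracture made by a blunt blow, on both sides. The other groups of the study were young mice at day 0 (no fracture) and day 20 and mice aged 25 months, called old here, at the same 4 days. The labels give neither strain nor sex. RNA was taken either from the whole bone or from the callus, without a note of which for any one array.

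A broken long bone heals mostly through cartilage. Neutrophils and then macrophages enter the clot and release chemokines and cytokines, and progenitor cells from the periosteum divide and turn into chondrocytes. The chondrocytes build a matrix of type II collagen and aggrecan, enlarge (hypertrophy, marked by type X collagen), let the matrix mineralize and call in vessels, osteoclasts and osteoblasts that replace it with bone. The comparison of day 10 with day 5 asks which genes change between the early, inflamed stage of repair and the stage at which cartilage is built.

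Expression values are log2 normalized intensities as the authors deposited them, so a difference of 1 is a doubling. Changes are day 10 minus day 5 and are given ± SE, group means ± SD over 5 arrays, and a gene was called at a limma adjusted p under 0.05 over all genes. Of the 19938 genes, 4072 (20.4%) were called, 2153 higher at day 10 (10.8%) and 1919 lower (9.62%). The balance between the directions turned with the scaling, with 1967 higher and 2309 lower after quantile normalization and 1791 higher and 2370 lower after centring each array on its median. Among genes called higher the median change was 0.58 and 363 rose by at least 1 log2 unit, of which 32 changed by at least 2 log2 units. Among genes called lower the median change was −0.51 and 161 fell by at least 1 log2 unit, of which 15 changed by at least 2 log2 units. The median change over all genes was 0.01. In 3116 genes (15.6%) the 5 values of one day lay wholly above the 5 of the other, and 2541 of these were also called.

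One array stood apart. Day 5 replicate 5 scored −9.2 on the first principal component of the 10 arrays, which carried 53.3% of the variance, while the 5 day 10 arrays scored 22.5, 28.3, 33.6, 27.8 and 21.6 and the other 4 day 5 arrays −29.7, −32.4, −33.4 and −29.0. For genes called higher its value lay a median of 34.8% of the way from the other day 5 arrays to the day 10 mean, and for genes called lower 20.3%. It was also the only day 5 array whose sample name starts with P, the others starting with H. Without it 4103 genes were called (2254 higher and 1849 lower), 3652 of them the same genes in the same direction, and 640 genes changed by at least 1 log2 unit, against 524 with it. Counts of called genes in a list are therefore followed in brackets by the count without this array.

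Sample names were sorted here into 3 series, lettered, numbered under 60 and numbered from 60, a split that the labels do not give. Lettered names with different first letters were joined, so this split does not set day 5 replicate 5 apart. All 5 young day 5 names are lettered, and of the young day 10 names replicates 1 and 2 are under 60 and the other 3 from 60, so day and naming series cannot be told apart within young mice. A fit over all groups with the naming series as a block called 1852 genes. Of these 1009 were higher and 843 lower, against 2153 and 1919 in the main fit. The second entry in each bracket is the count from the fit with the block, and where rises and falls are both given they keep the order of the sentence. Since that fit called fewer genes over all, a smaller second count need not be particular to a list. Counts in lists are to be read beside the main-fit shares over all genes, 10.8% higher and 9.62% lower. Medians over all 28815 probe sets lay between 5.399 and 5.483 in the 10 arrays. The label calls the tissue bone fracture callus. The bone collagen Col1a1 was at 11.80 ± 0.28 at day 10 and 11.30 ± 0.38 at day 5, and the muscle actin Acta1 at 12.19 ± 0.14 at day 10 and 11.52 ± 0.43 at day 5, so both days also carried RNA of skeletal muscle.

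The largest rises were in cartilage genes. The cartilage lectin Clec3a had 9.47, 10.4, 10.57, 10.99 and 9.13 at day 10, against 4.24, 4.72, 4.72, 4.49 and 7.21 at day 5, a change of 5.04 ± 0.52 or 32.9-fold (adjusted p = 1.7e-08). Every day 10 array lay above every day 5 array, and day 5 replicate 5 was the highest of its group by more than 2 log2 units. Col10a1, the type X collagen of hypertrophic chondrocytes, had 10.95, 11.42, 11, 11.47 and 11.2 at day 10, against 6.26, 5.94, 5.95, 6.11 and 8.39 at day 5 (4.68 ± 0.38, adjusted p = 8.7e-11). Without day 5 replicate 5 the changes were 5.57 for Clec3a and 5.14 for Col10a1. In these bulk samples more cells of a type and more RNA per cell cannot be told apart, here and in all that follows.

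Other structural genes of cartilage moved with them. The matrix linker Matn3 had 8.21, 9.67, 9.72, 10.02 and 8.33 at day 10, against 5.46, 5.28, 4.72, 5.15 and 7.83 at day 5. Cnmd, the anti-angiogenic chondromodulin of cartilage, had 7.67, 8.71, 8.87, 9.74 and 8.7 at day 10, against 4.52, 5.03, 4.73, 4.67 and 7.27 at day 5. Both groups were separate for both genes, and in each the lowest day 10 array was replicate 1 and the highest day 5 array replicate 5. Scrg1, a gene switched on in chondrogenesis, had 7.44, 8.47, 8.77, 9.74 and 9.05 at day 10, against 4.58, 5.26, 4.8, 4.12 and 7.3 at day 5. Hapln1, the link protein that ties aggrecan to hyaluronan, had 9.25, 10.04, 9.61, 10.48 and 9.92 at day 10, against 5.57, 6.6, 6.01, 5.11 and 8.79 at day 5. Chad, a leucine-rich matrix protein, had 10.16, 10.09, 9.68, 9.16 and 8.39 at day 10, against 6.98, 6.63, 5.61, 6.89 and 8.03 at day 5. For Scrg1 the lowest day 10 array lay just above day 5 replicate 5. The changes were 3.5 ± 0.41 for Matn3, 3.49 ± 0.36 for Cnmd, 3.48 ± 0.45 for Scrg1, 3.45 ± 0.53 for Hapln1 and 2.67 ± 0.47 for Chad, with adjusted p from 1.7e-08 (Cnmd) to 9.5e-05 (Chad).

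Genes outside the matrix lists also stood among the 10 largest rises. Zim1, an imprinted zinc finger gene, had 6.81, 7.96, 8.0, 8.65 and 7.8 at day 10, against 5.09, 4.53, 4.72, 4.87 and 5.83 at day 5 (2.84 ± 0.24, adjusted p = 9.3e-11). The angiotensin receptor gene Agtr2 had 6.39, 8.29, 8.5, 8.78 and 8.81 at day 10, against 5.47, 5.3, 5.39, 5.44 and 5.73 at day 5 (2.69 ± 0.34, adjusted p = 5.9e-07). Its day 10 replicate 1 lay far below the other 4, yet above all day 5 arrays. The phospholipase gene Lipi had 5.88, 6.16, 6.24, 6.67 and 6.49 at day 10, against 3.6, 3.65, 3.55, 3.3 and 4.17 at day 5 (2.63 ± 0.23, adjusted p = 4e-10). Next in size among called genes whose 2 groups did not overlap, predicted genes left out, were Ptch1 (2.53 ± 0.27), Snorc (2.5 ± 0.39), Pamr1 (2.5 ± 0.27), Acan (2.49 ± 0.50), Col9a1 (2.49 ± 0.26), Ptprz1 (2.43 ± 0.36), Phex (2.29 ± 0.37), Panx3 (2.29 ± 0.42), Mpped2 (2.28 ± 0.16) and Nrk (2.26 ± 0.24). All 20, picked for large changes without overlap, were called in every alternative setting run.

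**Figure D1:**
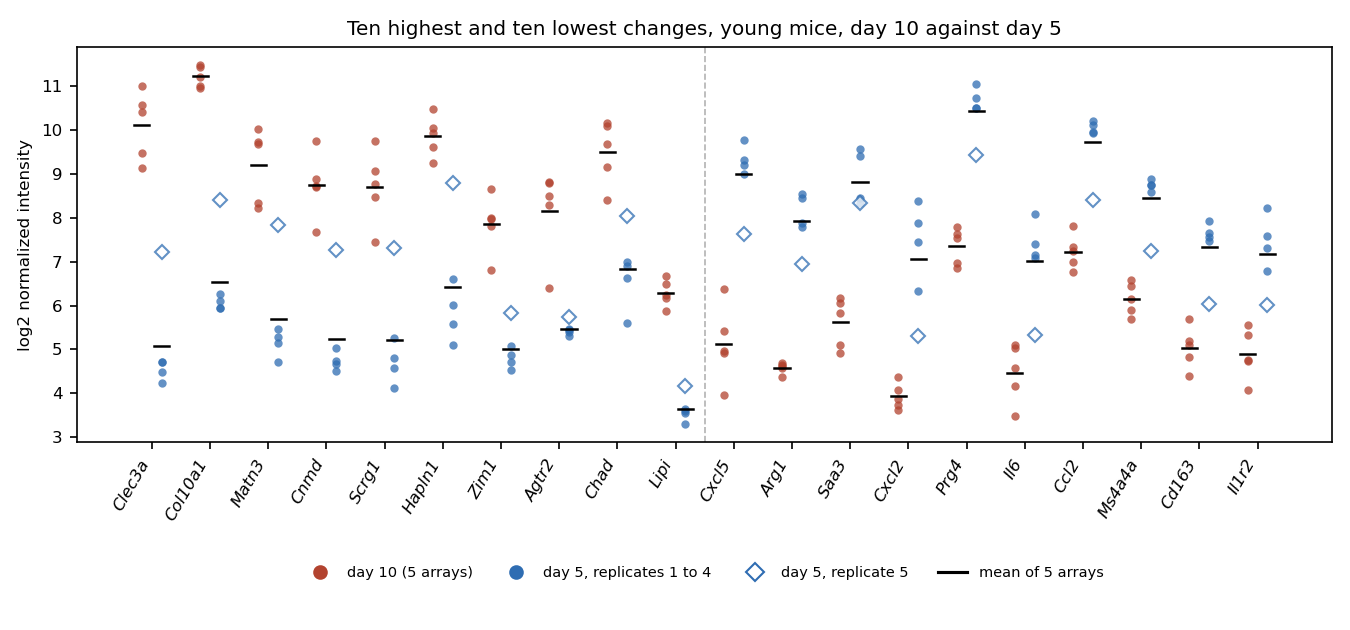
Log2 normalized intensity of the 10 genes with the largest rises and the 10 with the largest falls, one point per array, day 10 left of day 5 for each gene, with bars at group means. Day 5 replicate 5 (open diamond) lies toward the day 10 arrays in most of the 20 genes, for example at 8.39 for Col10a1, where the other day 5 arrays lie between 5.94 and 6.26.

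Among genes that code for the cartilage matrix, 24 of 31 rose [25, 21] and Ccn6 fell (−0.33), with a median change of 1.46. The mean level of the list was 7.45, 7.88, 8.0, 8.17 and 7.55 in the day 10 arrays, against 5.97, 6.06, 5.86, 5.77 and 7.1 in the day 5 arrays, with no overlap. Col2a1, the main collagen of cartilage, averaged 9.14 ± 0.64 at day 10 and 6.85 ± 1.08 at day 5 (2.29 ± 0.37, adjusted p = 2.6e-05), and its groups overlapped. Acan, the aggrecan core protein, had 9.78, 10.67, 10.39, 10.86 and 9.74 at day 10, against 7.78, 7.7, 7.14, 6.71 and 9.64 at day 5. Col9a1, a chain of the type IX collagen on the surface of type II fibrils, had 7.11, 8.2, 8.28, 8.79 and 7.77 at day 10, against 5.25, 5.24, 5.14, 5.18 and 6.9 at day 5. Comp (2.0 ± 0.35), Edil3 (2.08 ± 0.36), Ucma (1.84 ± 0.31) and Mia (1.76 ± 0.30) rose as well, and so did the small leucine-rich proteoglycan gene Epyc (1.13 ± 0.19).

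Of 15 genes of hypertrophic cartilage 12 rose [12, 7], with a median change of 1.31. Panx3, a channel of chondrocytes and osteoblasts, had 9.65, 9.78, 9.82, 10.33 and 9.71 at day 10, against 7.16, 8.02, 7.46, 6.37 and 8.84 at day 5 (2.29 ± 0.42, adjusted p = 0.00013). Mmp9, the gelatinase that clears hypertrophic matrix, had 11.35, 10.89, 10.95, 10.06 and 9.97 at day 10, against 8.47, 8.54, 8.51, 7.84 and 9.78 at day 5. Mmp13, the collagenase of the same zone, had 11.48, 11.27, 11.08, 11.18 and 10.95 at day 10, against 9.72, 10.21, 9.97, 8.96 and 10.39 at day 5. The days were separate for all 3 genes. Scin (1.60 ± 0.23), the phosphatase gene Alpl (1.36 ± 0.37), the PTH and PTHrP receptor gene Pth1r (1.31 ± 0.31), Phospho1 (1.03 ± 0.28), Ihh (0.88 ± 0.19) and Vegfa (0.78 ± 0.16) also rose. Ibsp, the bone sialoprotein gene, did not pass, with 11.92 ± 0.19 at day 10 and 11.66 ± 0.63 at day 5 (0.26 ± 0.29, adjusted p = 0.59).

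Transcription factors of cartilage were a list of their own. Sox9, the master regulator of chondrocytes, averaged 7.63 ± 0.35 at day 10 and 7.28 ± 0.53 at day 5, a change of 0.36 ± 0.22 that did not pass (adjusted p = 0.27). Its partner Sox5 rose by 0.43 ± 0.15 (adjusted p = 0.035), while Sox6, with 0.40 ± 0.24, did not pass (adjusted p = 0.26). Of the 23 cartilage transcription factors 9 rose [9, 3], with a median change of 0.35. Foxc1, a forkhead factor of skeletal progenitors, had 7.79, 7.66, 8.23, 7.52 and 7.64 at day 10, against 5.82, 5.98, 5.65, 5.3 and 6.78 at day 5 (1.87 ± 0.19, adjusted p = 1.7e-08). The osteoblast factor Sp7 (1.29 ± 0.35), the hypertrophy factor Mef2c (1.12 ± 0.17) and Trps1 (1.02 ± 0.24) followed. In the Sox, Runx, Dlx and Msx families 9 of 29 rose [10, 1], led by Dlx5 with 8.81, 8.6, 8.29, 8.13 and 7.96 at day 10, against 6.41, 7.22, 6.61, 5.9 and 7.56 at day 5 (1.62 ± 0.33, adjusted p = 0.00044).

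Of 44 collagen chains, those of cartilage included, 19 rose [21, 7], with a median change of 0.37. The fibrillar Col1a1 (0.50 ± 0.34, adjusted p = 0.34) and Col3a1 (0.30 ± 0.30, adjusted p = 0.54) did not pass. Of 28 fibrous matrix genes 6 rose and 2 fell, against 9.62% of all genes called lower [7 and 1, 2 and 1]. Tnmd, the tenomodulin of tendon and ligament, had 9.76, 10.68, 10.71, 10.63 and 11.04 at day 10, against 8.54, 8.14, 7.63, 7.73 and 9.56 at day 5 (2.25 ± 0.37, adjusted p = 3.6e-05). Prg4, the lubricin of joint surfaces, went the other way, with 6.97, 7.78, 7.54, 6.86 and 7.62 at day 10, against 10.49, 11.03, 10.49, 10.71 and 9.43 at day 5 (−3.07 ± 0.42, adjusted p = 2.3e-06). Both groups were separate for both genes. Fmod, the fibromodulin counted with synovium and tendon, where 4 of 12 rose and 1 fell [4 and 1, 3 and 1], had 10.81, 11, 10.9, 10.46 and 10.29 at day 10, against 9.11, 9.31, 9.0, 9.09 and 10.19 at day 5.

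Enzymes that finish collagens and glycosaminoglycans changed in smaller numbers. Of 30 genes for collagen processing and crosslinking 7 rose [7, 3] and none fell, although 2 were called lower when arrays were centred or quantile normalized. The largest rise was that of the lysyl oxidase Loxl4 with 7.84, 7.68, 7.7, 7.83 and 7.46 at day 10, against 6.26, 6.38, 6.76, 5.37 and 6.65 at day 5 (1.42 ± 0.31, adjusted p = 0.001). The procollagen protease Tll1 rose by 1.04 ± 0.17. Of 34 genes for glycosaminoglycan synthesis and sulfation 6 rose and 5 fell [9 and 5, 3 and 0], with a median change of 0.10. The hyaluronan synthase Has2 had 5.33, 6.92, 6.54, 6.96 and 7.15 at day 10, against 8.74, 8.39, 8.2, 7.69 and 7.33 at day 5 (−1.49 ± 0.34, adjusted p = 0.0014). Csgalnact1 fell by 0.90 ± 0.23, and Xylt1 (0.96 ± 0.18) and the sulfotransferase Chst15 (0.84 ± 0.16) rose.

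Bone-forming genes rose too. Of 23 osteoblast and mineralization genes 14 rose [15, 4], with a median change of 0.83. Omd, the osteomodulin of bone matrix, had 9.24, 9.01, 9.09, 8.94 and 9.02 at day 10, against 6.31, 7.37, 7.3, 6.07 and 8.39 at day 5 (1.97 ± 0.41, adjusted p = 0.00062). The sphingomyelinase Smpd3, needed for mineralization, rose by 1.51 ± 0.34. Of 12 osteocyte genes 8 rose and Fgf23 fell [8 and 1, 3 and 0]. The receptor phosphatase Ptprz1 had 7.98, 7.27, 8.11, 7.15 and 7.05 at day 10, against 4.7, 5.51, 4.94, 4.31 and 5.96 at day 5. Phex, the peptidase whose loss causes low blood phosphate, had 9.3, 8.49, 9.29, 8.45 and 8.35 at day 10, against 6.16, 6.94, 6.81, 5.08 and 7.43 at day 5. Sost, the Wnt antagonist made by mature osteocytes, rose by only 0.36 ± 0.13 (adjusted p = 0.046). In the osteoblast list the fit with the naming series as a block called 4 genes.

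Of 20 osteoclast genes 6 rose and the macrophage growth factor receptor Csf1r fell (−0.64 ± 0.17) [7 and 1, 2 and 1]. The fusion gene Dcstamp (1.35 ± 0.23) and the co-receptor Oscar (1.35 ± 0.31) rose, while the resorption enzymes Ctsk (0.67 ± 0.31, adjusted p = 0.13) and Acp5 (0.82 ± 0.33, adjusted p = 0.08) did not pass. Among 7 regulators of osteoclasts 3 rose [4, 2], the receptor Lgr4 most, with 7.37, 7.93, 7.79, 8.14 and 7.76 at day 10, against 5.79, 5.72, 5.57, 5.73 and 6.34 at day 5 (1.97 ± 0.20, adjusted p = 1.2e-08). The decoy receptor gene Tnfrsf11b rose by 0.52 ± 0.18. Its ligand Tnfsf11, the RANKL gene, did not pass (0.36 ± 0.15, adjusted p = 0.087).

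**Figure D2:**
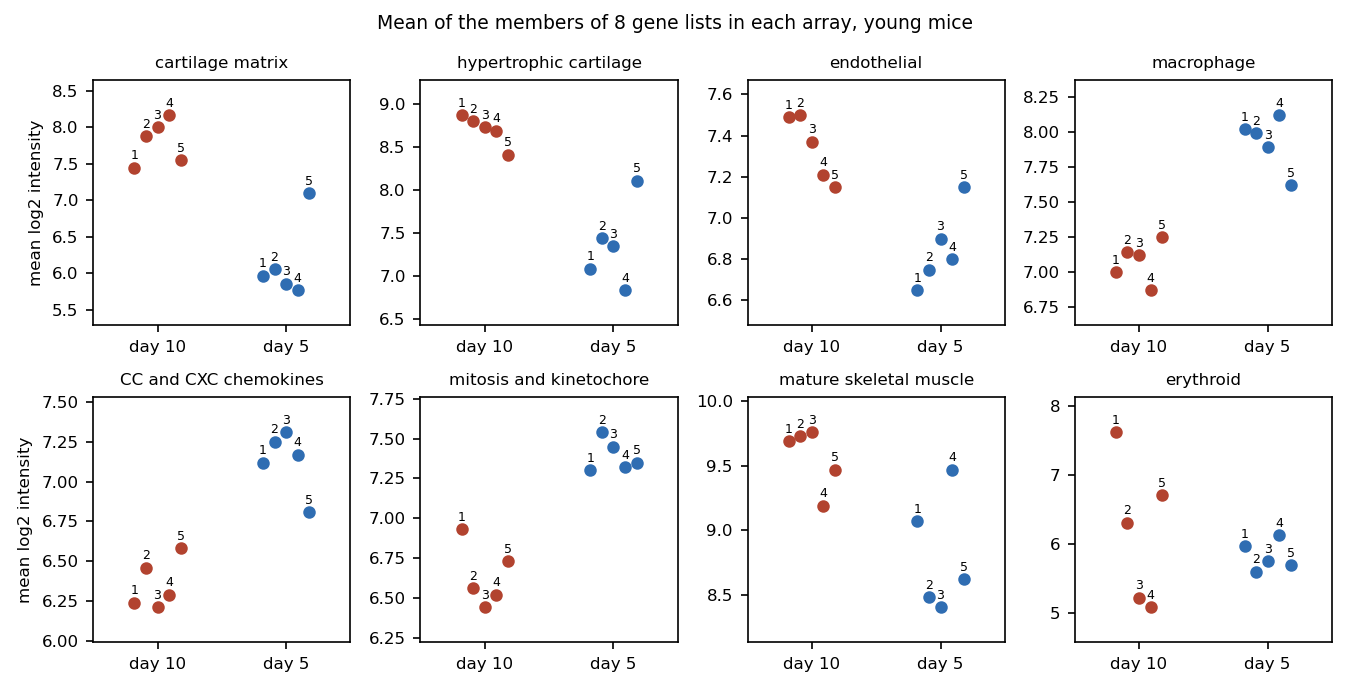
Mean log2 intensity of the measured members of 8 gene lists in each of the 10 arrays, day 10 left of day 5, with replicate numbers at the points. The days are separate for cartilage matrix (7.45 or more at day 10, 7.1 or less at day 5), hypertrophic cartilage, macrophage, chemokines and mitosis, meet at 7.15 for endothelial, and overlap for mature skeletal muscle and erythroid, where day 10 spans 5.08 to 7.62 and day 5 spans 5.6 to 6.13.

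Signals known to order the growth plate were next compared, ligands and receptors first. In the hedgehog pathway the ligand Ihh, made by prehypertrophic chondrocytes, binds Ptch1 and so frees Smo to act on the Gli factors, whose targets include Ptch1 and Hhip. Of 15 ligands, receptors and carriers 8 rose and Disp2 fell (−0.36 ± 0.11) [9 and 1, 4 and 0]. Ihh averaged 6.40 ± 0.28 at day 10 and 5.52 ± 0.29 at day 5. Ptch1 had 8.85, 9.26, 8.69, 9.3 and 8.63 at day 10, against 6.18, 6.26, 6.05, 6.04 and 7.53 at day 5 (2.53 ± 0.27, adjusted p = 3.1e-08). Hhip, a decoy for the ligand, had 5.49, 6.39, 5.33, 6.01 and 5.84 at day 10, against 3.77, 3.77, 3.86, 3.8 and 4.22 at day 5 (1.93 ± 0.13, adjusted p = 2.2e-13). Both genes had separate groups. Smo rose by 0.62 ± 0.17 and the co-receptor Boc by 0.75 ± 0.16. Of 14 effectors and targets, a list that shares Ptch1 and Hhip with the first, 5 rose [5, 4], among them Gli1 (1.28 ± 0.13) and Gli2 (1.15 ± 0.18).

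Of 17 BMP and GDF ligands 5 rose and the activin subunit Inhba fell (−0.72 ± 0.24) [6 and 0, 1 and 0]. Bmp4 had 7.38, 6.86, 7.05, 6.73 and 6.65 at day 10, against 6.04, 5.64, 5.82, 6.29 and 6.75 at day 5 (0.83 ± 0.22, adjusted p = 0.0059), and its groups overlapped through day 5 replicate 5. Bmp2 rose by 0.80 ± 0.17 and Bmp6 by 0.47 ± 0.16. Of 29 receptors, antagonists and targets 10 rose [11, 7], led by the pseudoreceptor Bambi with 8.64, 8.4, 8.75, 8.43 and 8.54 at day 10, against 6.87, 7.35, 7.24, 6.38 and 7.88 at day 5 (1.40 ± 0.25, adjusted p = 0.00011). The receptor Bmpr1a (0.91 ± 0.20) and the inhibitory Smad6 (0.81 ± 0.15) also rose. In the TGF-beta pathway 7 of 18 rose and 3 fell [7 and 3, 3 and 2]. The latent-complex protein Ltbp4 had 7.04, 7.58, 7.22, 6.92 and 6.9 at day 10, against 5.67, 5.69, 5.6, 6.11 and 6.4 at day 5 (1.24 ± 0.17, adjusted p = 2.5e-06). The ligands Tgfb2 (0.70 ± 0.23) and Tgfb3 (0.79 ± 0.24) rose, Tgfb1 had 0.09 ± 0.28 (adjusted p = 0.87), and the matrix protein Tgfbi fell by 0.90 ± 0.18.

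Of 35 Wnt ligands and receptors 11 rose [14, 5], led by the enhancer Rspo3 with 6.74, 7.08, 7.36, 7.15 and 7.14 at day 10, against 5.52, 5.99, 5.69, 5.58 and 6.11 at day 5 (1.32 ± 0.19, adjusted p = 4.2e-06). Of 23 Wnt inhibitors and targets 12 rose and Ccn5 fell (−0.78) [14 and 1, 5 and 1]. Frzb, a secreted Wnt antagonist of cartilage, had 7.18, 7.66, 7.6, 7.78 and 6.94 at day 10, against 4.57, 5.7, 5.43, 4.74 and 6.56 at day 5 (2.03 ± 0.37, adjusted p = 0.00013). The antagonist Wif1 rose by 1.67 ± 0.34, and the target Axin2, a common readout of the pathway, by 0.44 ± 0.13 (adjusted p = 0.017).

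Of 23 FGF ligands and receptors 5 rose and 2 fell, near the 9.62% of all genes called lower [5 and 2, 3 and 0]. Fgfr2 had 8.43, 7.99, 8.19, 8.35 and 8.2 at day 10, against 6.56, 7.23, 6.95, 6.14 and 7.42 at day 5 (1.37 ± 0.21, adjusted p = 1.1e-05), and Fgfr3, the brake on chondrocyte division, rose by 1.21 ± 0.20. Among 23 genes of the IGF, PTHrP and growth hormone axis 16 rose [17, 11], with a median change of 0.69. The natriuretic peptide receptor Npr2, needed for long bone growth, had 7.33, 7.54, 7.51, 7.99 and 7.36 at day 10, against 6.05, 5.78, 5.86, 6.12 and 6.56 at day 5 (1.47 ± 0.18, adjusted p = 2.9e-07). The growth factors Igf1 (0.87 ± 0.20) and Igf2 (1.19 ± 0.28) rose together with their binding proteins. Igfbp3 had 9.73, 10.16, 9.97, 10.07 and 9.62 at day 10, against 8.29, 8.67, 9.12, 7.96 and 9.44 at day 5, and Igfbp5 rose by 1.17 ± 0.20. In the Notch pathway 6 of 16 rose [7 and 1 lower, 3], with the ligand Jag1 at 0.85 ± 0.15, the target Hes1 at 0.60 ± 0.13 and the target Hey1 at 8.4, 7.93, 8.22, 7.41 and 7.49 at day 10, against 6.37, 6.25, 6.36, 6.14 and 6.85 at day 5.

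Vessel genes rose in numbers. Of 28 endothelial genes 18 rose and Lyve1, which lymphatic vessels share with macrophages, fell by 0.71 ± 0.18 [19 and 1, 10 and 0]. The median change was 0.51. Kdr, the main receptor for Vegfa, had 7.33, 7.16, 7.29, 6.92 and 6.39 at day 10, against 5.69, 5.64, 6.02, 5.64 and 6.45 at day 5 (1.13 ± 0.18, adjusted p = 1.5e-05). Its groups overlapped only because day 10 replicate 5 lay just below day 5 replicate 5. Of 22 genes of VEGF and angiopoietin signalling 12 rose and 2 fell [13 and 2, 6 and 2]. The growth factor Pdgfd had 7.82, 7.83, 8.04, 7.86 and 7.99 at day 10, against 6.52, 6.7, 6.42, 6.32 and 7.18 at day 5, and Vegfd (−1.17 ± 0.22) and Angptl4 (−1.02 ± 0.23) fell. Of 12 pericyte and smooth muscle genes 9 rose [9, 6], Rgs5 most, with 10.54, 10.74, 10.76, 10.97 and 10.69 at day 10, against 9.26, 8.76, 8.82, 9.05 and 9.37 at day 5 (1.69 ± 0.24, adjusted p = 3.1e-06). The contractile actin Acta2 did not pass (0.16 ± 0.27, adjusted p = 0.73).

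The largest falls were in genes of inflammation. Cxcl5, a chemokine that attracts neutrophils, had 3.97, 4.97, 4.91, 6.38 and 5.41 at day 10, against 9.19, 9.32, 9.77, 9.0 and 7.63 at day 5, a change of −3.85 ± 0.44 or 14.5-fold (adjusted p = 1.1e-07). Cxcl2, of the same class, had 3.87, 3.74, 4.09, 4.37 and 3.62 at day 10, against 6.32, 7.87, 8.38, 7.45 and 5.3 at day 5 (−3.13 ± 0.47, adjusted p = 8.2e-06). The monocyte attractant Ccl2 had 6.76, 7.8, 6.99, 7.23 and 7.34 at day 10, against 9.93, 9.95, 10.19, 10.11 and 8.39 at day 5 (−2.49 ± 0.34, adjusted p = 2.2e-06). In all 3 the groups were separate and day 5 replicate 5 was the lowest of its group. Of 34 CC and CXC chemokines 17 fell [16, 15], with a median change of −0.49. Ccl12 had 6.48, 6.66, 6.61, 6.88 and 7.41 at day 10, against 9.24, 9.37, 9.03, 8.99 and 8.23 at day 5, and Ccl7 (−2.09 ± 0.39) and Cxcl1 (−1.10 ± 0.25) fell too, while the lymphocyte attractant Ccl5 did not pass (0.33 ± 0.42, adjusted p = 0.65). Of 21 chemokine receptors 4 fell [4, 4]: Ccr1 (−0.98), Ccr2 (−1.31), Cxcr4 (−0.80) and Cxcr2, the receptor for Cxcl2 and Cxcl5, with 7.98, 6.69, 6.2, 6.84 and 6.98 at day 10, against 8.04, 8.88, 9.2, 7.75 and 7.69 at day 5.

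Of 28 cytokines 7 fell [7, 3]. Il6, which drives the acute-phase response, had 3.49, 4.58, 5.04, 5.1 and 4.17 at day 10, against 7.41, 7.16, 8.09, 7.09 and 5.33 at day 5 (−2.54 ± 0.44, adjusted p = 6.9e-05). Il1b had 6.66, 5.99, 6.16, 7.01 and 6.31 at day 10, against 7.85, 7.95, 8.44, 7.57 and 6.02 at day 5 (−1.14 ± 0.36, adjusted p = 0.021). Its groups overlapped through day 5 replicate 5, and its call was lost on leaving out any of 5 other single arrays. The anti-inflammatory Il10 (−0.37 ± 0.09) and Il1rn (−0.61 ± 0.17) also fell, and Tnf did not pass (−0.22 ± 0.20, adjusted p = 0.48). Of 27 cytokine receptors 18 fell and Lifr rose (1.11 ± 0.21) [18 and 1, 11 and 1]. Il1r2, the decoy receptor for interleukin 1, had 4.74, 4.09, 4.75, 5.56 and 5.34 at day 10, against 7.31, 7.57, 8.21, 6.78 and 6.01 at day 5 (−2.28 ± 0.34, adjusted p = 7.9e-06). Il4ra had 7.03, 7.51, 7.48, 7.37 and 7.53 at day 10, against 9.25, 9.0, 9.31, 9.06 and 8.68 at day 5.

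Of 30 genes of innate sensing and NF-kB feedback 16 fell [16, 11], with a median change of −0.52. The receptor Tlr1 had 4.99, 5.83, 6.02, 5.7 and 6.4 at day 10, against 7.68, 7.85, 7.75, 7.75 and 7.21 at day 5 (−1.86 ± 0.29, adjusted p = 1.8e-05), and the lectin receptors Clec4e (−1.84 ± 0.36) and Clec4d (−1.77 ± 0.32) and the lipopolysaccharide receptor Cd14 (−1.70 ± 0.23) fell by similar amounts. Of 21 genes of prostaglandin synthesis and the acute phase 7 fell and Alox15 rose (0.41) [6 and 1, 4 and 1]. Saa3, an acute-phase protein of macrophages, had 5.11, 5.84, 4.93, 6.16 and 6.05 at day 10, against 8.45, 9.56, 9.39, 8.32 and 8.32 at day 5 (−3.19 ± 0.34, adjusted p = 2.6e-08). The protease inhibitor Serpina3n had 7.51, 8.63, 8.51, 8.34 and 8.99 at day 10, against 9.77, 10.2, 10.08, 10.15 and 9.6 at day 5. The inducible cyclooxygenase Ptgs2 did not pass, with 8.87 ± 0.61 at day 10 and 8.61 ± 0.52 at day 5. Of 33 interferon response genes 15 fell [14, 7], with a median change of −0.58. Cxcl10 had 5.82, 5.78, 6.11, 5.65 and 6.23 at day 10, against 8.18, 8.32, 6.95, 7.84 and 6.69 at day 5, and Ifit1 (−1.28 ± 0.39) and Oas2 (−1.08 ± 0.28) fell.

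Macrophage genes fell as a group, with exceptions. Of 35 measured, 22 fell and 2 rose [22 and 2, 17 and 2], with a median change of −0.80. Arg1, the arginase of macrophages in wounds, had 4.64, 4.38, 4.58, 4.63 and 4.7 at day 10, against 7.78, 8.54, 8.44, 7.88 and 6.95 at day 5 (−3.33 ± 0.28, adjusted p = 9.3e-11). Cd163, the scavenger receptor for haemoglobin, had 4.82, 5.11, 5.19, 4.4 and 5.69 at day 10, against 7.46, 7.55, 7.66, 7.93 and 6.03 at day 5 (−2.28 ± 0.29, adjusted p = 6.8e-07). Ms4a4a, a membrane protein of macrophages, had 5.69, 5.9, 6.57, 6.15 and 6.44 at day 10, against 8.75, 8.59, 8.87, 8.73 and 7.24 at day 5 (−2.29 ± 0.24, adjusted p = 1.7e-08). The groups were separate in all 3. The family members Ms4a6d (−2.22 ± 0.31), Ms4a6b (−2.08 ± 0.31) and Ms4a6c (−1.95 ± 0.24) followed, with day 10 levels of 6.63, 7.39, 7.22, 7.31 and 7.68 for Ms4a6d, against 9.55, 9.79, 9.61, 9.49 and 8.88 at day 5. The pan-macrophage gene Adgre1 fell by 1.17 ± 0.21 and the mannose receptor Mrc1 by 1.31 ± 0.23.

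The 2 macrophage genes that rose were Retnla and Slc40a1. Retnla, a secreted marker of alternative activation, averaged 5.56 ± 0.40 at day 10 and 3.39 ± 0.14 at day 5 (2.16 ± 0.35, adjusted p = 2.9e-05). Slc40a1, the iron exporter ferroportin, had 7.94, 8.15, 7.72, 8.69 and 8.26 at day 10, against 6.56, 6.19, 6.27, 6.18 and 6.99 at day 5 (1.72 ± 0.21, adjusted p = 2.8e-07). Among 18 genes of iron and haem handling 2 rose and 5 fell [2 and 6, 2 and 3]. There the ferroxidase Cp rose by 1.17 ± 0.17 with Slc40a1, and the haem-degrading Hmox1 fell by 1.34 ± 0.25 with Cd163. In the monocyte list 3 of 9 fell and Nr4a1 rose [3 and 1, 2 and 1]. Ms4a4c had 5.91, 6.25, 6.54, 6.23 and 6.56 at day 10, against 8.12, 8.19, 7.9, 8.38 and 7.53 at day 5, and Nr4a1, a factor of patrolling monocytes that is also an immediate early gene, had 6.63, 8.02, 7.21, 7.07 and 7.05 at day 10, against 6.43, 5.61, 6.25, 6.75 and 5.62 at day 5, with overlap.

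Other blood cell lists changed in few members, to be read beside the shares over all genes, 10.8% higher and 9.62% lower. Of 23 neutrophil genes 4 fell [4, 1], among them Stfa2 with 5.65, 4.74, 5.17, 5.96 and 5.1 at day 10, against 6.67, 7.53, 7.15, 6.33 and 5.66 at day 5, and the median change was 0.13. Of 15 genes of dendritic cells and MHC class II 2 fell [2, 2], Flt3 with 4.82, 5.04, 4.83, 4.9 and 4.61 at day 10, against 5.96, 5.57, 5.87, 5.7 and 5.55 at day 5, and Cd86 by 0.77. Of 21 B cell genes 2 rose and 3 fell [2 and 3, 2 and 1]. Vpreb1, a part of the receptor of B cell precursors, had 7.45, 6.85, 5.67, 6.18 and 7.07 at day 10, against 4.73, 5.09, 5.24, 3.97 and 5.15 at day 5 (1.81 ± 0.34, adjusted p = 0.00016). Of 18 genes of eosinophils, mast cells and basophils 3 rose and 1 fell [4 and 1, 1 and 0], with the eosinophil peroxidase Epx at 5.1, 4.92, 4.42, 4.43 and 4.91 at day 10, against 3.7, 3.37, 3.48, 3.5 and 3.97 at day 5. Of 11 megakaryocyte and platelet genes Rab27b rose (0.63) and the platelet chemokine Pf4 fell [1 and 1, 0 and 1], Pf4 with 9.95, 9.84, 9.46, 9.22 and 10.09 at day 10, against 11.22, 11.58, 11.61, 11.55 and 10.52 at day 5.

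By limma no member was called among 28 T and NK cell, 10 plasma cell, 21 erythroid and 10 epidermis genes. At an unadjusted p under 0.05 there were 1 T and NK cell gene (lower), 1 plasma cell gene (higher), 2 erythroid genes (higher) and 2 epidermis genes (lower), and without day 5 replicate 5 limma called 1 T and NK cell gene higher. The erythroid list varied most between arrays of one day, its mean level being 7.62, 6.31, 5.22, 5.08 and 6.71 in the day 10 arrays, against 5.97, 5.6, 5.75, 6.13 and 5.69 in the day 5 arrays. Day 10 replicate 1 was the highest of the 10 and replicate 4 the lowest. The neutrophil list (8.36, 7.48, 6.96, 7.64 and 7.55 at day 10, against 7.56, 7.82, 7.82, 7.15 and 8.1 at day 5) and the platelet list (7.3, 6.43, 5.89, 5.85 and 6.77 at day 10, against 6.33, 6.41, 6.68, 6.35 and 6.63 at day 5) also had their highest mean in day 10 replicate 1. Of 17 adipocyte genes Lpl rose, with 9.24, 9.26, 9.16, 8.69 and 9.23 at day 10, against 8.23, 8.08, 8.18, 7.98 and 7.85 at day 5, and Cebpa fell (−0.53) [1 and 1, 1 and 1].

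**Figure D3:**
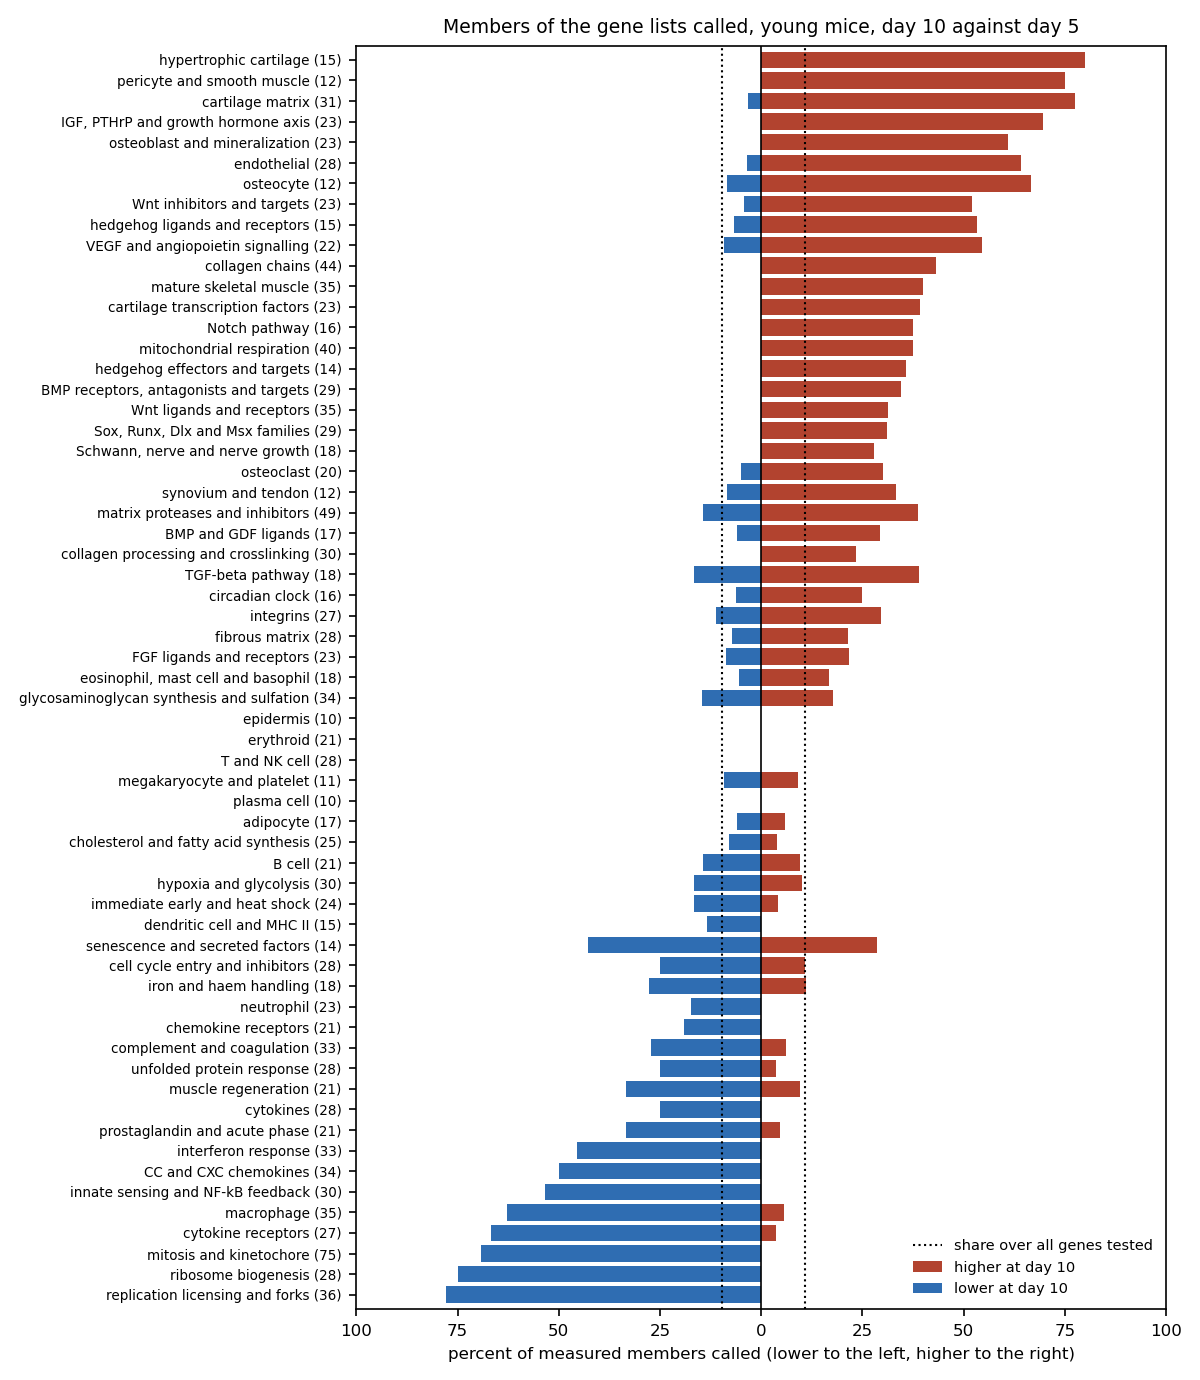
Percent of the measured members of each gene list called higher (to the right) or lower (to the left) at day 10 than at day 5 in young mice, for lists of 10 or more measured genes, with the number measured in brackets. Dotted lines mark the shares over all genes tested, 10.8% higher and 9.62% lower. Hypertrophic cartilage, with 12 of 15 higher, stands at the top and replication, with 28 of 36 lower, at the bottom.

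Of 33 complement and coagulation genes 2 rose and 9 fell [3 and 9, 0 and 6]. The receptor C3ar1 had 7.69, 8.03, 7.79, 7.51 and 8.3 at day 10, against 9.74, 9.98, 9.89, 10.08 and 9.28 at day 5 (−1.93 ± 0.23, adjusted p = 2.8e-07), and C5ar1 fell by 1.39 ± 0.21, whereas the protease C1s1 rose by 0.90 ± 0.21. Of 49 matrix proteases and their inhibitors 19 rose and 7 fell [19 and 6, 8 and 4]. Mmp9, Mmp13 and the membrane collagenase Mmp14 (0.74 ± 0.25) rose. The cathepsin Ctss (−1.33 ± 0.20), the inhibitor Timp1 (−0.97 ± 0.29) and the stromelysin Mmp3 (−0.74 ± 0.23) fell. Of 27 integrins 8 rose and 3 fell, near the 9.62% of all genes called lower [8 and 3, 5 and 1]. Itga10, the collagen receptor of chondrocytes, had 8.02, 7.7, 7.88, 8.05 and 7.88 at day 10, against 6.04, 6.29, 6.32, 5.55 and 6.84 at day 5 (1.70 ± 0.22, adjusted p = 1.1e-06), Itga11 rose by 1.24 ± 0.26 and the myeloid Itgam fell by 1.18 ± 0.18.

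Genes of cell division fell together. Of 75 genes of mitosis and the kinetochore 52 fell [50, 37], with a median change of −0.77 and a mean level of 6.93, 6.56, 6.44, 6.52 and 6.73 in the day 10 arrays, against 7.3, 7.54, 7.45, 7.32 and 7.35 in the day 5 arrays. Day 5 replicate 5 lay inside its own group here. The centromere protein Cenph had 5.92, 5.13, 4.84, 5.23 and 5.57 at day 10, against 6.14, 7.07, 6.8, 6.25 and 6.47 at day 5 (−1.21 ± 0.24, adjusted p = 0.00033). The mitotic kinase Plk1 (−1.20 ± 0.26), the cyclin Ccnb2 (−1.05 ± 0.22) and its kinase Cdk1 (−1.07 ± 0.20) also fell, while Mki67 (−0.33 ± 0.28, adjusted p = 0.46) and Top2a (−0.57 ± 0.22, adjusted p = 0.068) did not pass. Of 36 genes of replication licensing and forks 28 fell [25, 17], with a median change of −0.71. Uhrf1, which carries DNA methylation through replication, had 7.54, 6.93, 5.95, 6.39 and 6.89 at day 10, against 7.4, 7.93, 7.85, 7.87 and 7.58 at day 5 (−0.99 ± 0.28, adjusted p = 0.0091). Its groups overlapped through day 10 replicate 1, the array with the highest mean of the erythroid list.

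Over all genes 10.8% were called higher and 9.62% lower. Among 28 genes of cell cycle entry and its inhibitors 3 rose, near the share for higher, and 7 fell [3 and 6, 2 and 2]. The 3 were the inhibitors Cdkn1c (0.82 ± 0.16) and Cdkn2b (0.83 ± 0.21) and the p53 target Trp53inp1, with 8.27, 7.99, 8.19, 8.31 and 8.45 at day 10, against 7.4, 7.16, 7.18, 7.38 and 7.67 at day 5. The cyclin Ccne1 fell by 0.87 ± 0.26 and Ccnd1 did not pass (0.15 ± 0.23, adjusted p = 0.71). Of 28 genes of ribosome biogenesis 21 fell [22, 7], with a median change of −0.48. Nop56, a scaffold of the enzyme that modifies ribosomal RNA, had 7.76, 7.8, 7.81, 7.82 and 7.78 at day 10, against 8.66, 8.84, 8.76, 8.49 and 8.24 at day 5 (−0.80 ± 0.14, adjusted p = 4.6e-05), and its partners Nop58 (−0.77 ± 0.16) and Fbl (−0.72 ± 0.20) fell with it. In the senescence and secreted factor list, which shares Il6, Ccl2, Cxcl1 and the IGF binding proteins with lists above, 4 of 14 rose and 6 fell [4 and 5, 3 and 5].

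For genes of the division, chemokine and interferon lists, the 250 bases upstream of start sites were read from RefSeq promoter windows (build GRCm38.p6). Short motifs already known from the promoters of such genes were sought on both strands. The motifs were the cell cycle homology region CHR (TTTGAA), the CCAAT box (CCAAT), E2F sites (TTTCCCGC, TTTGGCGC or TTCCCGCC), a consensus NF-kB site and the interferon-stimulated response element, ISRE. Some E2F spellings overlap each other. One promoter is shown for each of 4 lists, that of the called member with the largest fall whose window holds the motif, with the matches in capitals. Windows on a single chromosome had been left out of this choice.
Cdk1 (chr10:69352913-69353162, minus strand, CHR and CCAAT): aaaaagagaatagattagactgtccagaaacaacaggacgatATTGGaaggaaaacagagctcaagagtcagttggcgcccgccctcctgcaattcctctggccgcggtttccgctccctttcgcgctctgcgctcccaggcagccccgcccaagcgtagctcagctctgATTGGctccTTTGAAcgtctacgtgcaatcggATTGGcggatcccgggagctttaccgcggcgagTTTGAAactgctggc
Uhrf1 (chr17:56303087-56303336, plus strand, E2F): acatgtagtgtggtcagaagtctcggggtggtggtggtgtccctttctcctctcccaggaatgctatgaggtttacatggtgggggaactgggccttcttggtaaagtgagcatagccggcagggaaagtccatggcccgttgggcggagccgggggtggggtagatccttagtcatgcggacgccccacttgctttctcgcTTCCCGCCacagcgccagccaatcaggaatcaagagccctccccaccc
Cxcl2 (chr5:90903649-90903898, plus strand, NF-kB): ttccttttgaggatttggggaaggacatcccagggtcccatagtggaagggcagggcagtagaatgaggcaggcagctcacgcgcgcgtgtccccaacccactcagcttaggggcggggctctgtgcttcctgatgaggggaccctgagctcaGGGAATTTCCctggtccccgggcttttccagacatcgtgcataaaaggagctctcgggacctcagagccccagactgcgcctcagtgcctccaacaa
Cxcl10 (chr5:92348890-92349139, minus strand, ISRE): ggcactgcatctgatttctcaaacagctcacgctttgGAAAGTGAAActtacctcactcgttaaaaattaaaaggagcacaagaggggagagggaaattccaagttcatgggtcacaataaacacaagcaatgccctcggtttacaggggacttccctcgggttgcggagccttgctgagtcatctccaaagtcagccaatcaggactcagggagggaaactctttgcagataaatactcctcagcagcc
Capitals mark only the motifs named beside each gene, which Cdk1 carries more than once, CHR and CCAAT alike, and the others once. The Uhrf1 and Cxcl10 windows also hold a CCAAT box, left in lower case.

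Over 19177 windows of 15614 measured genes the share with a CHR was 13.4%, with a CCAAT box 34.5%, with both 4.78%, with an E2F site 3.76%, with an NF-kB site 0.751% and with an ISRE 2.86%. Of 67 windows of the mitosis list 26 (38.8%) held a CHR, 47 (70.1%) a CCAAT box and 22 (32.8%) both. Of 35 windows of the replication list 10 (28.6%) held an E2F site and 21 (60%) a CCAAT box. An NF-kB site was in 5 of 26 windows of the chemokine list (19.2%) and in 8 of 32 of the innate sensing list (25.0%). An ISRE was in 11 of 33 windows of the interferon list (33.3%) and in 3 of 26 of the chemokine list (11.5%). Windows of the cartilage matrix list held a CHR in 2 of 26 and a CCAAT box in 8 of 26. These are counts of letters over all list members with a window, called or not, and a gene can have several windows. The motifs were already known from such genes, so the counts say nothing about the change between the days. No binding was measured.

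Muscle genes moved in opposite directions by stage. Of 21 genes of muscle regeneration 7 fell and 2 rose [7 and 2, 4 and 1]. The embryonic myosin Myh3 had 5.67, 7.63, 6.7, 5.97 and 6.82 at day 10, against 9.49, 7.91, 8.39, 9.23 and 8.66 at day 5 (−2.18 ± 0.35, adjusted p = 2.8e-05). The fusion gene Mymk (−1.81 ± 0.29) and the differentiation factor Myog (−1.72 ± 0.30) fell with it, while the satellite cell factor Pax7 did not pass (−0.26 ± 0.10, adjusted p = 0.076). Of 35 genes of mature skeletal muscle 14 rose [13, 5], with a median change of 0.84 and a mean level of 9.69, 9.73, 9.76, 9.19 and 9.47 in the day 10 arrays, against 9.07, 8.48, 8.4, 9.47 and 8.62 in the day 5 arrays. Myl1, a myosin light chain, had 11.4, 11.32, 11.63, 10.93 and 11.04 at day 10, against 9.78, 9.19, 9.29, 10.15 and 9.75 at day 5 (1.64 ± 0.32, adjusted p = 0.00026). Casq1, the calcium store of fast fibres, rose by 1.44 ± 0.36, and the creatine kinase Ckm did not pass (0.77 ± 0.31, adjusted p = 0.071).

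Of 40 genes of mitochondrial respiration 15 rose [11, 3], with a median change of 0.28. Fewer rose when arrays were centred on their median (8) or quantile normalized (6), but none fell. Ppargc1a, which drives mitochondrial biogenesis, had 5.63, 5.59, 5.59, 5.23 and 5.49 at day 10, against 4.59, 4.25, 4.25, 5.0 and 4.2 at day 5 (1.05 ± 0.27, adjusted p = 0.0049). Day 5 replicate 4 was the highest of its group for this gene and for the mature muscle mean. How far the muscle content of the arrays enters the respiration values was not tested. Of 30 genes of hypoxia and glycolysis 3 rose, near the 10.8% of all genes called higher, and 5 fell, against 9.62% called lower [3 and 3, 2 and 1]. Epas1, the HIF-2 alpha gene, had 9.24, 9.16, 8.75, 8.6 and 8.36 at day 10, against 7.54, 7.12, 7.42, 7.94 and 8.0 at day 5, the glucose transporter Slc2a1 fell by 0.80 ± 0.15, and Hif1a did not pass (−0.13 ± 0.23, adjusted p = 0.75).

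The remaining lists are to be read beside the shares over all genes, 10.8% called higher and 9.62% called lower. The cholesterol and fatty acid synthesis list lay below both shares. Of 28 genes of the unfolded protein response 7 fell and the co-chaperone Dnajb9 rose [7 and 1, 5 and 0], Dnajb9 with 7.86, 8.52, 8.7, 8.24 and 8.28 at day 10, against 7.77, 7.67, 7.75, 7.47 and 7.76 at day 5. Of 25 genes of cholesterol and fatty acid synthesis 2 fell and Acaca rose (0.41) [1 and 1, 0 and 1], with the sterol isomerase Ebp at 6.47, 6.87, 6.41, 6.75 and 6.79 at day 10, against 7.23, 7.61, 7.27, 6.79 and 7.34 at day 5. Of 18 genes of Schwann cells, nerve and nerve growth 5 rose [5, 3]. These were the guidance genes Sema3c, Sema3d (1.15), Slit2 (1.00 ± 0.27) and Slit3 (1.06) and S100b (1.46 ± 0.25), which chondrocytes share with Schwann cells. Sema3c had 7.32, 8.91, 9.07, 8.46 and 9.01 at day 10, against 7.08, 6.99, 7.26, 6.88 and 7.24 at day 5. Of 16 clock genes 4 rose and Nfil3 fell (−0.37) [4 and 3, 2 and 0], with the repressor Nr1d1 at 8.69, 8.88, 9.14, 8.98 and 9.13 at day 10, against 7.69, 7.52, 7.46, 8.28 and 8.41 at day 5. Of 24 immediate early and heat shock genes 4 fell and Nr4a1 rose [5 and 1, 2 and 1], among them Fosl1 (−0.96) and Junb (−0.81).

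Levels over the 4 days sampled place the step in the whole course of young mice. Col10a1 averaged 6.32 at day 0, 6.53 at day 5, 11.21 at day 10 and 8.50 at day 20. Ptch1 averaged 6.08, 6.41, 8.94 and 7.07 on the same days, so both were highest at day 10. Phex went on rising, with 7.25, 6.49, 8.78 and 9.91, as did Foxc1 with 5.88, 5.90, 7.77 and 8.18. Arg1 averaged 4.70, 7.92, 4.59 and 4.75, a transient high at day 5. Retnla averaged 5.90, 3.39, 5.56 and 6.42, so that it was lowest at day 5 and its rise to day 10 was back toward the day 0 level. Vpreb1 likewise averaged 9.03, 4.83, 6.65 and 7.67. Tests of days 0 and 20 were not part of the comparison.

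**Figure D4:**
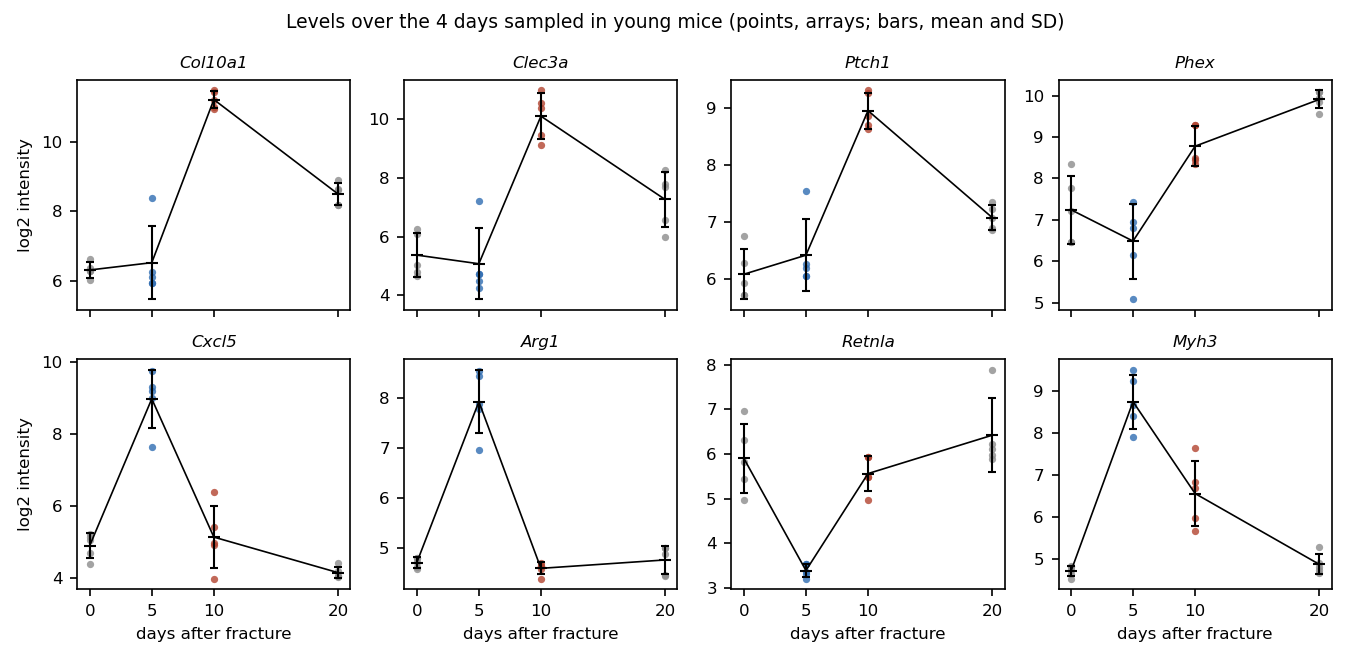
Log2 intensity of 8 genes at days 0, 5, 10 and 20 in young mice, with one point per array (5 per day) and the mean and SD as bars. Col10a1, Clec3a and Ptch1 have their highest mean at day 10, Cxcl5, Arg1 and Myh3 at day 5, Phex at day 20, and Retnla its lowest mean at day 5 (3.39).

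The same step was then read in old mice, whose arrays are all different from those of the young mice. Most old day 5 names are also lettered and no old day 10 name is, so agreement between the ages cannot separate day from naming series. Of the 2153 genes called higher in young mice, 2038 also had a positive change in old mice and 1401 were called higher there, against 14.3% of all genes called higher in old mice, and 5 were called lower. Of the 1919 called lower in young mice, 1800 had a negative change in old mice and 1067 were called lower, against 11.2% of all genes, and 3 were called higher. The median change in old mice was 0.51 for the first set and −0.38 for the second. Cartilage matrix genes rose in 27 of 31 in old mice, with a median change of 2.22, Clec3a by 6.18 and Sox9 by 1.34. Macrophage genes fell in 22 of 35 and mitosis genes in 30 of 75.

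Other lists looked different side by side. Mature muscle had 14 of 35 higher in young mice, and 2 lower in old mice, where the median change was −0.08. Respiration had 15 of 40 higher in young mice, and 1 lower in old mice. Erythroid genes had none called in young mice, and 16 of 21 lower in old mice, with a median change of −1.49. Collagen processing had 7 of 30 higher in young mice and 26 in old mice. The difference between the 2 steps was itself tested, and of the 1409 list members none was called by limma. An unadjusted p under 0.05 was found for 246 of them, against 2203 of all 19938 genes. Among the 246 were 19 of 35 mature muscle, 17 of 21 erythroid and 17 of 30 collagen processing genes. They also held 17 of 34 glycosaminoglycan synthesis and 15 of 31 cartilage matrix genes. These differences between ages therefore did not pass the test over all genes.

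Over all genes 2 (0.01%) were called in the test of the young step minus the old step, and 2203 had an unadjusted p under 0.05. Bcat1, which starts the breakdown of branched-chain amino acids, had 6.78, 7.28, 7.11, 7.19 and 7.12 at day 10, against 8.08, 8.27, 8.5, 7.94 and 8.32 at day 5 in young mice, and 7.86, 7.6, 7.58, 7.53 and 7.58 at day 10, against 7.44, 7.99, 7.57, 6.5 and 7.56 at day 5 in old mice. The young groups were separate and the old ones overlapped, and the steps differed by −1.34 ± 0.25 (adjusted p = 0.045). Fam207a averaged 5.72 ± 0.07 at day 10 and 6.18 ± 0.17 at day 5 in young mice, and 6.10 ± 0.19 at day 10 and 5.76 ± 0.14 at day 5 in old mice, a difference of −0.80 ± 0.15 (adjusted p = 0.045). Next by p and not called were Asrgl1 (0.80), Nol3 (1.38), Cd209f (1.38) and Ganab (−0.70), with adjusted p from 0.057 to 0.064. Both calls were lost on leaving out day 5 replicate 5 of the young mice, where 2 other genes were called, with positive differences. No gene was called on leaving out day 5 replicate 1, 2 or 3 or day 10 replicate 3 or 5 of the young mice. The same held for most single arrays of the old mice.

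**Figure D5:**
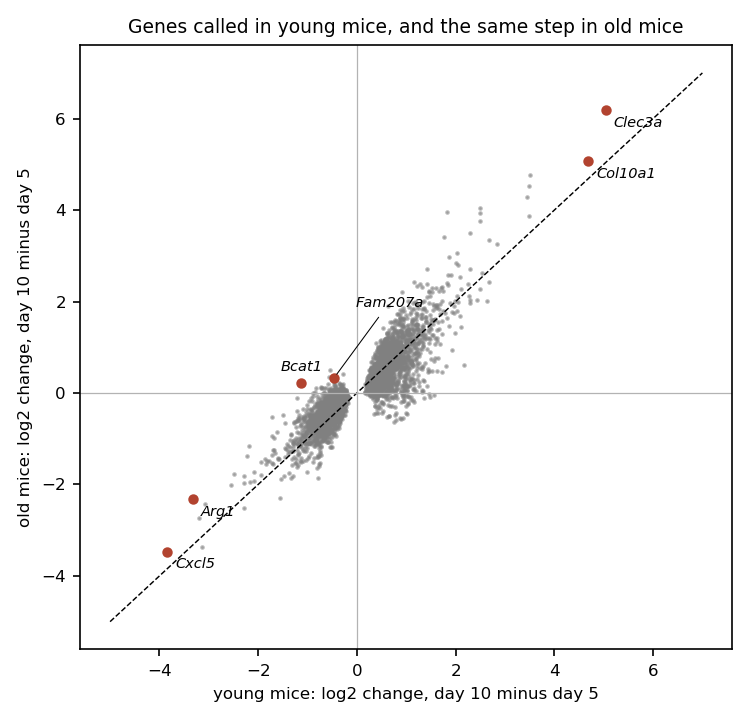
Log2 change from day 5 to day 10 in young mice (horizontal) and old mice (vertical) for the 4072 genes called in young mice, with the line of equal change dashed. Most points lie in the lower left and upper right, Clec3a at 5.04 in young and 6.18 in old mice, and Bcat1 and Fam207a, the 2 genes called in the test of the difference, lie above the line at the left.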

How the data were processed

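RNA was measured on Affymetrix Mouse Gene 1.0 ST arrays, 1 per mouse. Per the labels' protocols, total RNA was amplified by the ribo-SPIA method from poly(T) and random primers. The authors deposited log2 normalized intensities, and Partek is named in the submitters' processing notes. How background correction and summarization were done, and on which build, is not given in the sources used here. The deposited value tables were identical, and the ratios (fold values) the authors deposited matched the group means within 5.9e-05 log2.

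Of 28815 probe sets, 21782 named 1 gene in the platform annotation, 1598 named several and 5435 were not listed. The brightest probe set was kept for each of 999 genes with several, leaving 19938 genes. limma 3.58.1 in R 4.3.3 fitted 8 group means to all 41 arrays (33 residual degrees of freedom, prior 4.07), with Benjamini-Hochberg adjustment over all genes. Contrasts were day 10 minus day 5 in young mice, the same in old mice, and their difference. The number of arrays limits the precision. The labels call the mice unique, and p-values measure the spread between them.

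On simulated data 200 genes were changed, and the spread was drawn independently for each gene. The young contrast recovered 70%, 94%, 100% and 100% of shifts of 0.5, 1, 2 and 3 log2 units, and 6.7% of calls were false. For the young minus old difference the same shifts were recovered in 32%, 60%, 96% and 100%, and 6.5% of calls were false. That test thus missed most simulated differences of 0.5 log2 units. In the data the young contrast called 4072 genes, many more than were changed in the simulation, so the rates describe the simulated setting only.

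Named genes were the 20 with the largest change in each direction among called genes whose young groups did not overlap, predicted genes skipped (values per array for 10 of them), members of the lists (values per array for leading called members), and the 6 genes with the smallest p for the young minus old difference. Which eligible list members are named was chosen after their values were seen. Counts per list without day 5 replicate 5 were added after seeing the data. Other scalings, filters, tests and single arrays left out were tried as alternatives. The gene lists and members were chosen with earlier results of these data known. Same-numbered replicates of the 2 days did not deviate together (correlations −0.03, −0.15, −0.11, −0.25 and −0.17), so numbers only name arrays.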

Additional observations from a re-analysis of the deposited data

Results flagged for a closer look

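Among 158 sets of 5 arrays tested with Dixon's criterion 17 had an array far from the others. For a single set chance gives about 1 in 20. The sets were read on the same 10 arrays and are not independent, so the count cannot be judged against that rate. Of the 17, 14 were day 5 replicate 5 in young mice. Its first principal component score was −9.2. It was far above the other day 5 arrays in Clec3a (7.21), Col10a1 (8.39), Matn3 (7.83), Cnmd (7.27), Col9a1 (6.9), Ptch1 (7.53), Hhip (4.22), Lgr4 (6.34) and Fmod (10.19). It was far below them in Ccl2 (8.39), Ms4a4a (7.24), Cd163 (6.03) and Tlr1 (7.21). Its score lay between the 2 groups, and the cause was not tested.

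Day 10 replicate 1 was far below the other day 10 arrays in Agtr2 (6.39). Day 10 replicate 4 was far above them in Panx3 (10.33) and far below them in Lpl (8.69).

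The young and old steps differed by a test of the difference for Fam207a (−0.80 log2, young minus old) and Bcat1 (−1.34 log2).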

How the results depend on the processing

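The count of genes called in young mice was 4072. It was 3105 without genes below the median level, 5838 with array quality weights, 4276 (1967 higher) after quantile normalization, 4161 (1791 higher) after median centring, 3963 without the dimmest 25% of genes, 4076 with probe sets of a gene averaged, 3954 by an unmoderated ANOVA contrast, 4024 with trend and robust, 4670 with only the groups compared, and 4072 from the series matrix. It fell outside 1.5 times that count with the naming series as a block (1852) and with a 2-fold minimum (524). Leaving out 1 array gave 3186 (day 10 replicate 3) to 4103. With a replicate block it was 3978 in young mice and 7 for the young minus old difference, and the numbers do not pair the mice. For that difference, 2 genes as reported, the count was 5 with quantile normalization, 5 with centring, 4 without the dimmest 25%, 8 without genes below the median level, 158 with array weights, 1 with a 2-fold minimum, and 0 with the ANOVA contrast, trend and robust, only the groups compared, or the naming series as a block. Leaving out 1 array gave 0 to 47, with 47 without day 5 replicate 2 and 27 without day 10 replicate 1 of the old mice, and 21 without day 5 replicate 4 of the young mice. Of 89 genes followed over 1947 gene and setting pairs, 1930 kept direction and call, 17 kept direction and lost the call, and none reversed. The 89 were leading genes and much-changed members of lists, all called in the main fit, so they do not stand for other genes. The series matrix setting held the same values as the main fit and could not change a call. With the naming series as a block Has2, Loxl4, Omd, Bmp4, Il1b, Stfa2, Mmp13, Ebp and Dnajb9 were no longer called. Signal over background was not analysed here, so dim genes were judged by mean level alone.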

Other observations

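Probe sets named for miRNA genes cannot tell the mature strand from its precursor or host RNA. Of 300 miRNA gene symbols tested, 21 were higher and 7 lower at day 10 than at day 5 in young mice. That is 9.33% called, against 20.4% of all genes. The genes given here were chosen after their values were seen. The host transcript Mir99ahg had 7.07, 7.55, 8.15, 8.54 and 8.06 at day 10, against 6.17, 6.22, 6.53, 6.26 and 6.52 at day 5 (1.53 ± 0.23 SE, limma adjusted p = 9.6e-06). Of the miRNA genes it hosts, Mir99a (1.82 ± 0.38) and Mirlet7c-1 (0.94 ± 0.13) were called and Mir125b-2 (−0.05) was not. In the related cluster of another chromosome the host Mir100hg rose by 0.73 ± 0.24, while Mir100 (0.32), Mirlet7a-2 (0.05) and Mir125b-1 (−0.21) did not pass. Mir181b-2 (1.43 ± 0.28) and Mir133a-1 (1.28 ± 0.22) rose and Mir340 fell (−0.92 ± 0.16). Some of these were dim, where the lowest value of any probe set was 1.92. Mirlet7c-1 averaged 4.09 at day 10 and 3.15 at day 5, and Mir340 2.85 and 3.77. Mir140, a miRNA of chondrocytes, had 0.25 (adjusted p = 0.12).

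The mature strands of 3 of these are shown from RefSeq (GRCm38.p6) because 2 of them share a seed (bases 2 to 8, in capitals).
miR-99a-5p (chr16:77598940-77598961, plus strand): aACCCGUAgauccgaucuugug
miR-100-5p (chr9:41531437-41531458, plus strand): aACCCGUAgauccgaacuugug
let-7c-5p (chr16:77599672-77599693, plus strand): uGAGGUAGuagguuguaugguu
The seed ACCCGUA is common to miR-99a-5p and miR-100-5p, whose genes were called and not called here, as given above.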
